A study of Rattus norvegicus with 43 samples.

Results

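Fmo1 (flavin-containing monooxygenase 1) and Ephx1 (microsomal epoxide hydrolase, epoxide hydrolase 1) were followed in female Sprague-Dawley rats given 1 of 3 retinoids, in their liver, lung and mammary gland. Every probe set that the array's annotation assigns to these symbols and to no other gene was taken, which gave 1 for each gene out of 8740 kept on the array. They are 2 of 4736 genes with a probe set of their own: M84719_at for Fmo1 (Entrez gene 25256) and M26125_at for Ephx1 (Entrez gene 25315). The pair was picked because its liver signals were known to differ between the agents, so the liver values below are a description without a test. Lung arrays, mammary gland arrays and the untreated organs played no part in that choice and were tested.

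Treatment began at 100 days of age and ran for 7 days. Gavage with 60 mg per kg body weight was used for Targretin (bexarotene, a synthetic drug that activates retinoid X receptors). The diet of another group contained 100 mg per kg of 9-cis retinoic acid (9cRA, which binds those and also retinoic acid receptors), and the diet of the last group held 782 mg per kg of the amide 4-hydroxyphenylretinamide (4HPR, fenretinide). Controls ate the diet alone and no gavage control is labelled, so agent, dose and route cannot be told apart. The tissues were labelled normal. The 43 arrays made 12 groups, of 3 arrays for Targretin in each organ, diet lung and 4HPR mammary gland and of 4 arrays otherwise. Whether a group's arrays stand for separate animals is not labelled, so standard errors, intervals and p-values measure the spread between arrays only. The number of arrays limits the precision.

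Flavin-containing monooxygenases are flavoproteins of the endoplasmic reticulum that use NADPH and oxygen to oxidise the soft nucleophilic nitrogen and sulfur atoms of drugs and other foreign compounds, without a cytochrome P450. Microsomal epoxide hydrolase lies in the same membrane and adds water to reactive epoxides, many of them made by cytochromes P450, to give diols. In rodent liver Ephx1 is a known target of inducers that act through the receptors CAR and PXR and of compounds that activate Nrf2.

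The sequences upstream of the annotated starts are shown because the liver differences described here are differences in the transcripts of these genes. The RefSeq table on build GRCr8 held 1 start for Fmo1 and 2 starts for Ephx1, all on the minus strand of chromosome 13. Each window is the 250 bases before the start, at chr13:77747667-77747916 for Fmo1, chr13:95275853-95276102 for Ephx1 start 1 and chr13:95263118-95263367 for Ephx1 start 2, written 5′ to 3′ on the gene's strand. Capitals mark matches to the motifs searched.
Fmo1: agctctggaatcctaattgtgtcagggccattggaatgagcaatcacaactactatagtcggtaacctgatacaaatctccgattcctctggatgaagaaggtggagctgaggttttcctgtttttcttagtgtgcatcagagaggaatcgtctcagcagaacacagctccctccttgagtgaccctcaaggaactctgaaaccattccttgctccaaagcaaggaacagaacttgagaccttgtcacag
Ephx1 start 1: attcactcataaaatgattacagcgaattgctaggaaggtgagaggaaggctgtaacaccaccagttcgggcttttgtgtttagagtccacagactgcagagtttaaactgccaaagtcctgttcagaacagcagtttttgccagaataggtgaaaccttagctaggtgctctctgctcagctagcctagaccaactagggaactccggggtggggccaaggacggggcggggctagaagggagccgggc
Ephx1 start 2: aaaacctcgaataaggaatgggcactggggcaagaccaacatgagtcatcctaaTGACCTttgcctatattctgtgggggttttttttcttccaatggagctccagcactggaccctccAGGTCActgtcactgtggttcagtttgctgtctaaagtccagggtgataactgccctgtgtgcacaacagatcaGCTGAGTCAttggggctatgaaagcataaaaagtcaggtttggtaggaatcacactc

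The motifs searched, on both strands, were the nuclear receptor hexamer AGGTCA, its direct repeats with spacers of 1 to 5 bases, and the antioxidant response element core TGACNNNGC. Only Ephx1 start 2 held a match among these windows. It has AGGTCA on the opposite strand (TGACCT) at positions -196 to -191 and on the gene's strand at -131 to -126, counted back from the base before the start. It also has TGACNNNGC on the opposite strand, as GCTGAGTCA, at -57 to -49. Of 33469 promoter windows of this length, 14.1% held AGGTCA and 10.1% held TGACNNNGC, while the direct repeats were in 0 to 0.0508%. The Fmo1 window and the window of Ephx1 start 1 held none of these letters. A match is a description of the letters, and the array does not tell which start a transcript used.

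The values are MAS5 signal, in arbitrary units on a linear scale. Differences are log2 differences of signal plus 38.1, first group minus second, ± standard error from limma. Probe sets bind with different strength, so the signal of Fmo1 is not set against that of Ephx1. The median signal of an array lay between 265.9 and 389.7 for liver, between 466.2 and 633.3 for lung and between 346.9 and 441.4 for mammary gland. Most defining markers matched the labelled organs, with exceptions given below. Sftpc, a surfactant protein of alveolar cells, was 70107.7 to 166610.1 on lung arrays and at most 11214.4 elsewhere. Fabp4, a fatty acid binding protein of adipocytes, was 24671.7 to 77427.2 on mammary gland arrays and at most 875.3 elsewhere. Of the 11 adipocyte markers measured, all but Lep, Pck1 and Acaca had their highest median in mammary gland. Lep was alike in the organs (medians 5062.3 to 5438.75), and Pck1 and Acaca were highest in liver. Of the 16 mammary epithelial markers measured, all but Krt18, Prlr, Krt19 and Muc1 had their highest median in mammary gland. Krt18 and Prlr were highest in liver, and Krt19 and Muc1 in lung. Krt8 was nearly alike in mammary gland (median 6151.85) and lung (6068.65). Hepatocyte markers, of which 19 of 22 were measured, were also seen outside liver. Their summed signal, as a percentage of the untreated liver mean, was 10.3 to 15.7% on diet mammary gland arrays, 4.73 to 14.9% with 9cRA, 8.18 to 17.5% with 4HPR and 0.842 to 1.17% with Targretin. In lung it was 1.02 to 6.16% with diet, 1.18 to 1.41% with Targretin, 2.50 to 2.95% with 9cRA and 3.53 to 19.9% with 4HPR. Whether this signal takes part in the lung and mammary gland differences of either gene was not tested.

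In liver, Fmo1 was low on every Targretin array and high on every 4HPR array. Untreated livers read 3365.3, 4232, 3599.9 and 2277.2. Targretin livers read 776.7, 859.8 and 1127.3. 9cRA livers read 4701.8, 4745.4, 4527.1 and 3380.1, and 4HPR livers read 6447.1, 7062.1, 5798.9 and 8471.5. No Targretin array reached the lowest value of any other liver group, and no 4HPR array fell to the highest value of the others, whereas the 9cRA and diet arrays overlapped. The group means were 921 ± 183 (SD, n = 3) with Targretin, 3369 ± 814 (SD, n = 4) with diet, 4339 ± 646 (SD, n = 4) with 9cRA and 6945 ± 1141 (SD, n = 4) with 4HPR.

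**Figure D1:**
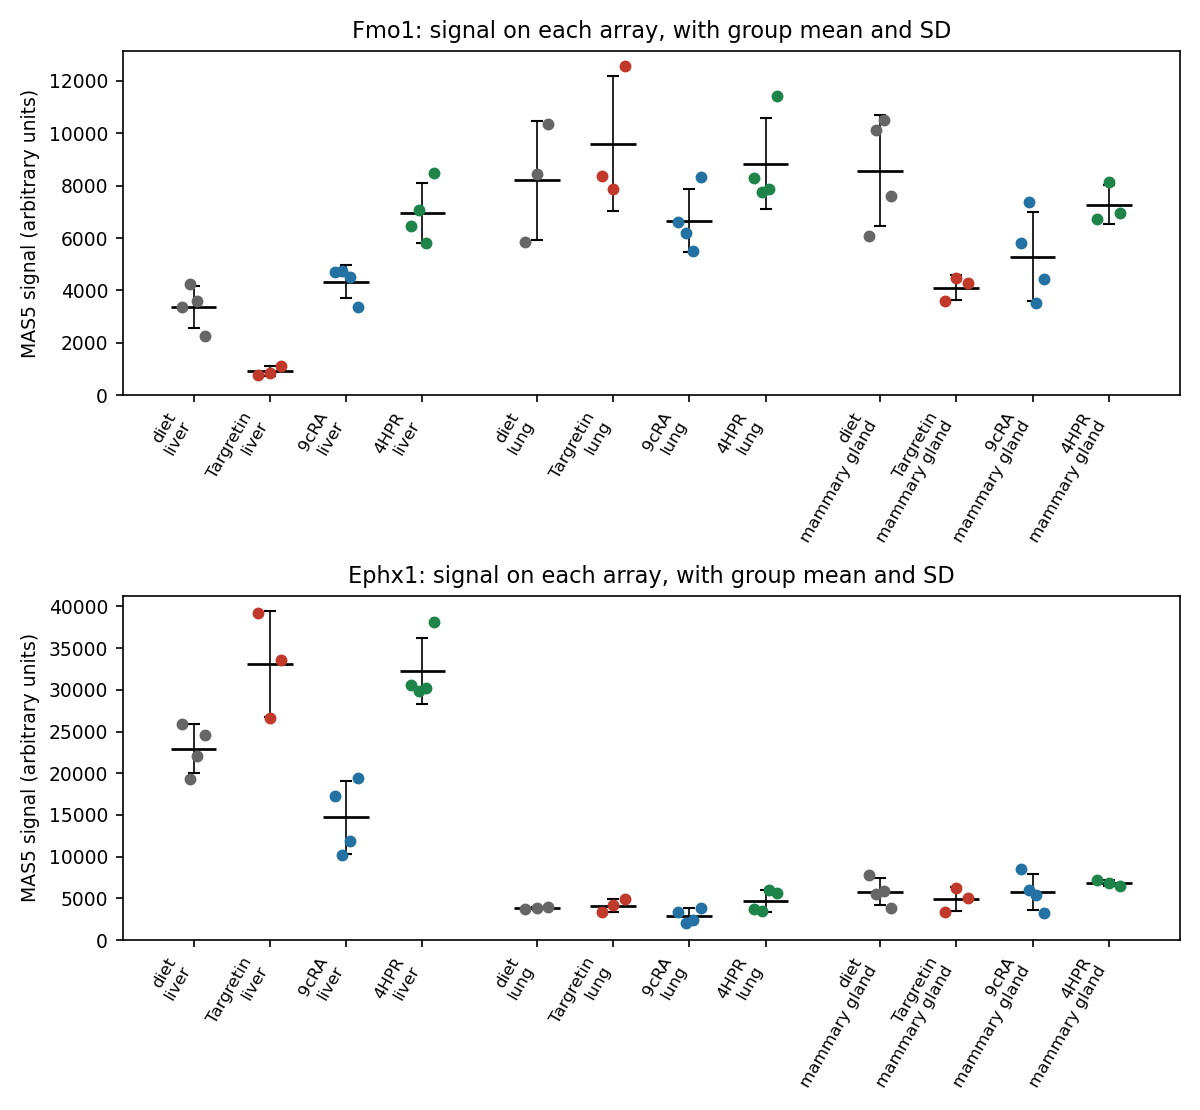
MAS5 signal (arbitrary units, linear axis from 0) of Fmo1 (top) and Ephx1 (bottom) on each of the 43 arrays, by agent and organ; points are arrays, horizontal lines group means and error bars SD. The 3 Targretin livers have the lowest Fmo1 signals of all groups, 776.7 to 1127.3, and Ephx1 is higher in all 4 liver groups than in any lung or mammary gland group.

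Between agents, the largest Fmo1 difference was Targretin minus 4HPR, -2.87 ± 0.20 (95% interval -3.30 to -2.43), a 7.29-fold lower level with Targretin. Targretin minus 9cRA was -2.19 ± 0.20 (-2.63 to -1.76), or 4.57-fold, and 9cRA minus 4HPR was -0.67 ± 0.19 (-1.07 to -0.27), or 1.59-fold. These are the contrasts on which the genes were chosen, and the comparisons with diet share the treated arrays. Against diet, Fmo1 differed by -1.81 ± 0.20 (-2.24 to -1.38) with Targretin, by 0.38 ± 0.19 (-0.017 to 0.78) with 9cRA and by 1.06 ± 0.19 (0.66 to 1.46) with 4HPR. The agents thus lay on both sides of diet for this gene, with Targretin below and 4HPR above. When each array was left out in turn, Targretin minus diet stayed between -1.98 and -1.69, 4HPR minus diet between 0.88 and 1.18, and 9cRA minus diet between 0.21 and 0.50, with the low end without diet replicate 4.

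Ephx1 followed another order in liver, with Targretin and 4HPR together at the top. Untreated livers read 25897.3, 19294, 22089.1 and 24553.9. Targretin livers read 39205.7, 26595 and 33529.3, and 4HPR livers read 30617.6, 29878.4, 30196.4 and 38123.9. 9cRA livers read 17299.5, 10241.2, 11934.7 and 19452. Every Targretin and 4HPR array lay above every untreated array, while 3 of the 4 9cRA arrays lay below all untreated arrays and the fourth, 19452, was just above the lowest of them, 19294. The means were 33110 ± 6316 (SD, n = 3) with Targretin, 32204 ± 3958 (SD, n = 4) with 4HPR, 22959 ± 2908 (SD, n = 4) with diet and 14732 ± 4354 (SD, n = 4) with 9cRA.

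Ephx1 was 2.29-fold higher with Targretin than with 9cRA, a difference of 1.20 ± 0.20 (95% interval 0.78 to 1.62), and 9cRA minus 4HPR was -1.17 ± 0.18 (-1.56 to -0.78), or 2.25-fold. Targretin minus 4HPR was 0.030 ± 0.20, with an interval of -0.39 to 0.45. As a ratio of Targretin to 4HPR the interval is 0.76 to 1.37, so a difference in favour of either agent lies within it. Against diet the differences were 0.52 ± 0.20 (0.097 to 0.94) with Targretin, 0.49 ± 0.18 (0.099 to 0.88) with 4HPR and -0.68 ± 0.18 (-1.07 to -0.29) with 9cRA. All of these are smaller than the Fmo1 differences of Targretin and 4HPR against diet. In an earlier analysis 4 arrays were doubted: diet liver replicate 2, 4HPR liver replicate 4, Targretin lung replicate 2 and Targretin mammary gland replicate 3. Without them 4HPR minus diet was 0.32 for Ephx1 and 1.08 for Fmo1.

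Markers of other cells moved with agents in liver as well. Macrophage markers (12 of 18 measured) summed to 30856.5 to 33788.7 with diet, 18691.5 to 24188.9 with Targretin, 25344.2 to 28842.9 with 4HPR and 23644.9 to 35676.4 with 9cRA, so Targretin and 4HPR lay below diet without overlap and 9cRA overlapped it. Of 11 of these markers tested, 4 fell with Targretin, 4 with 4HPR and 2 with 9cRA by limma, and none rose. Hepatocyte markers summed to 90.2 to 107.5% of the untreated liver mean with diet and to 118.8 to 141.2% with 9cRA, the agent with the lowest Ephx1. The sums were 90.8 to 118.0% with Targretin and 91.0 to 136.8% with 4HPR. The list did not move as one with 9cRA: of 19 genes tested, 4 rose and 3 fell by limma, 36.8% passing beside 5.16% of all liver probe sets. With Targretin and with 4HPR 1 of them fell and none rose, 5.26% each beside 11.1% and 2.78%. Smooth muscle markers (8 of 10 measured) summed to 1987.7 to 2213.8 with Targretin and 1548 to 1821.4 with diet. In liver the remaining marker lists overlapped diet with every agent. The part of these cell types in the liver values of Fmo1 and Ephx1 was not tested.

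**Figure D2:**
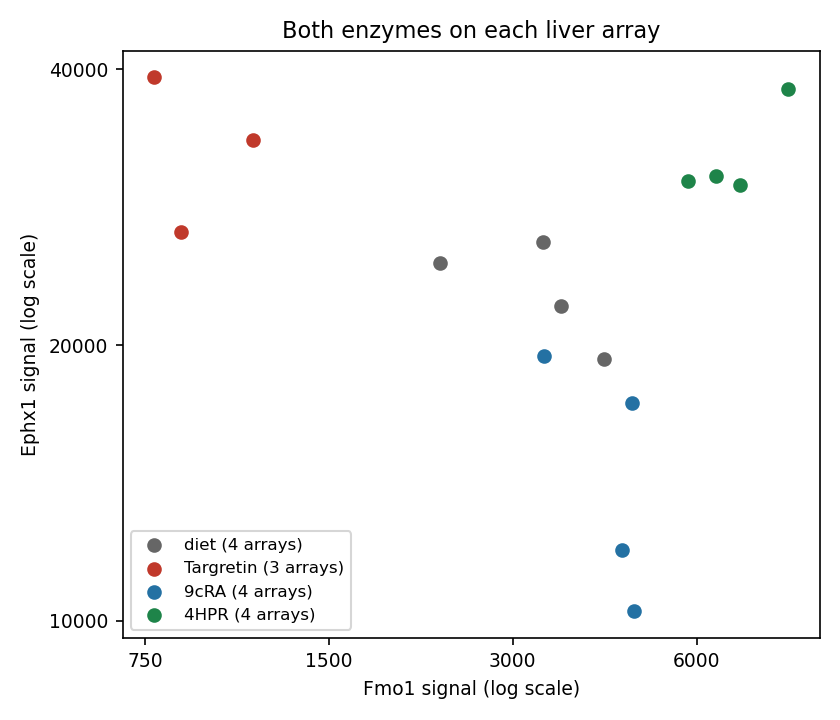
Fmo1 signal (horizontal, log scale) against Ephx1 signal (vertical, log scale) on each of the 15 liver arrays; each point is 1 array, coloured by agent. Targretin arrays lie at low Fmo1 and high Ephx1, 4HPR arrays at high values of both, and 9cRA arrays at low Ephx1 with Fmo1 overlapping diet.

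The share of all liver probe sets passing at an adjusted p under 0.05 (limma, Benjamini-Hochberg over 6084 probe sets) is given as background, and nothing is read from it for genes chosen on these arrays. It was 11.1% for Targretin against diet, 5.16% for 9cRA against diet and 2.78% for 4HPR against diet. Between agents it was 5.72% for Targretin against 9cRA, 7.87% for Targretin against 4HPR and 0.164% for 9cRA against 4HPR.

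In untreated rats the genes had opposite organ patterns, Fmo1 lowest in liver and Ephx1 highest there. Fmo1 read 5830.5, 8454.2 and 10351.5 in diet lung, and 6068.8, 10117.3, 10516.5 and 7594.5 in diet mammary gland, all above the highest untreated liver, 4232. Liver minus lung was -1.27 ± 0.24 (adjusted p = 1.54e-05 by limma over all probe sets tested) and liver minus mammary gland -1.34 ± 0.22 (adjusted p = 1.63e-06). Lung and mammary gland overlapped, and lung minus mammary gland was -0.066 ± 0.24 (95% interval -0.54 to 0.41, adjusted p = 0.845), a difference that turned to 0.059 under quantile normalization.

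Ephx1 read 3694.8, 3792.5 and 4013.7 in diet lung and 7832.5, 5468.1, 5930.5 and 3883.9 in diet mammary gland, against 19294 or more in untreated liver. It was 5.91-fold higher in liver than in lung (2.56 ± 0.26, adjusted p = 1.03e-10 by limma) and 4.05-fold higher than in mammary gland (2.02 ± 0.25, adjusted p = 4.36e-09). Lung minus mammary gland was -0.54 ± 0.26 and did not pass (adjusted p = 0.0931 by limma). It passed without diet mammary gland replicate 4, the lowest of that group (-0.72, adjusted p = 0.0324 by limma). That array also had the lowest hepatocyte marker sum of the diet glands, which were 148843.9, 120040.4, 119509.8 and 97226.7 for replicates 1 to 4. Whether this signal takes part in the organ differences of Ephx1 was not tested. As background, 55.4% of probe sets passed between untreated liver and lung, 59.4% between liver and mammary gland and 44.8% between lung and mammary gland, so passing between organs is common on these arrays. The median of all probe sets tested was -0.37 for liver minus lung and -0.070 under quantile normalization, which left the differences at -1.33 for Fmo1 and 2.60 for Ephx1.

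Over all 12 groups, Fmo1 ran from 9609 ± 2567 (SD, n = 3) in Targretin lung down to 921 ± 183 in Targretin liver. Between them in falling order of the mean came 4HPR lung (8834), diet mammary gland (8574), diet lung (8212), 4HPR mammary gland (7276), 4HPR liver (6945), 9cRA lung (6656), 9cRA mammary gland (5292), 9cRA liver (4339), Targretin mammary gland (4111) and diet liver (3369). The arrays of neighbours in that order overlapped everywhere except between diet liver and Targretin liver. The mean in 4HPR liver was thus among those of lung and mammary gland, while the other liver groups were at or near the bottom.

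For Ephx1 the 4 liver groups held the first places, and then came 4HPR mammary gland (6864), 9cRA mammary gland (5799), diet mammary gland (5779), Targretin mammary gland (4914), 4HPR lung (4701), Targretin lung (4146), diet lung (3834) and 9cRA lung (2934). Neighbours overlapped except between 4HPR liver and diet liver and between 9cRA liver and 4HPR mammary gland. Even the lowest liver array, 10241.2 with 9cRA, was above the highest array outside liver, 8526.7 in 9cRA mammary gland.

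In lung neither gene passed the test in any comparison. Fmo1 read 8379.8, 7887 and 12559 with Targretin, 6594.3, 6186.9, 5517.9 and 8326.3 with 9cRA and 8300.1, 7755.5, 7862 and 11416.9 with 4HPR, and every group overlapped the diet arrays. Against diet the differences were 0.23 ± 0.25 with Targretin (95% interval -0.29 to 0.76, adjusted p = 0.582), -0.28 ± 0.23 with 9cRA (-0.77 to 0.21, adjusted p = 0.653) and 0.13 ± 0.23 with 4HPR (-0.37 to 0.62, adjusted p = 0.9997), all by limma over 5935 probe sets. Without diet lung replicate 2, the lowest of the diet arrays, these values were 0.0067, -0.51 and -0.10, and over all arrays left out in turn they ran from 0.0067 to 0.42, from -0.51 to -0.093 and from -0.10 to 0.31. Between agents the largest was Targretin minus 9cRA, 0.51 ± 0.23, with an unadjusted p = 0.0426 and an adjusted p = 0.459 in limma.

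Ephx1 in lung read 3344.1, 4177.2 and 4917.4 with Targretin, 3407.1, 2066.4, 2357.6 and 3904 with 9cRA, and 3751.3, 3441.6, 5953.1 and 5659.2 with 4HPR. The groups overlapped, with 9cRA lowest on average as in liver. Against diet the differences were 0.095 ± 0.27 with Targretin (adjusted p = 0.854), -0.43 ± 0.25 with 9cRA (adjusted p = 0.534) and 0.25 ± 0.25 with 4HPR (adjusted p = 0.9997), by limma. The 4HPR lung replicate at 5953.1 is also the array whose hepatocyte marker sum was 19.9% of the untreated liver mean, and without it 4HPR minus diet was 0.12. Replicate 4 read nearly as high for Ephx1, 5659.2, with a hepatocyte marker sum of 40190.5 against 188186.9 on that array, and without replicate 4 the difference was 0.15. The part of the hepatocyte marker signal in these Ephx1 values was not tested. The largest difference between agents, 9cRA minus 4HPR, was -0.68 ± 0.23, with an unadjusted p = 0.0101 and an adjusted p = 0.435 in limma. It was -0.55 without the 4HPR array at 5953.1. As background, 2.39% of lung probe sets passed for Targretin against diet, 0% for 9cRA against diet and 0% for 4HPR against diet. By limma, 656 and 273 probe sets had an unadjusted p under 0.05 for 9cRA and 4HPR against diet in that order. Between agents 0.0168% passed for Targretin against 9cRA, 1.45% for Targretin against 4HPR and 0% for 9cRA against 4HPR, where 566 had an unadjusted p under 0.05 in limma.

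**Figure D3:**
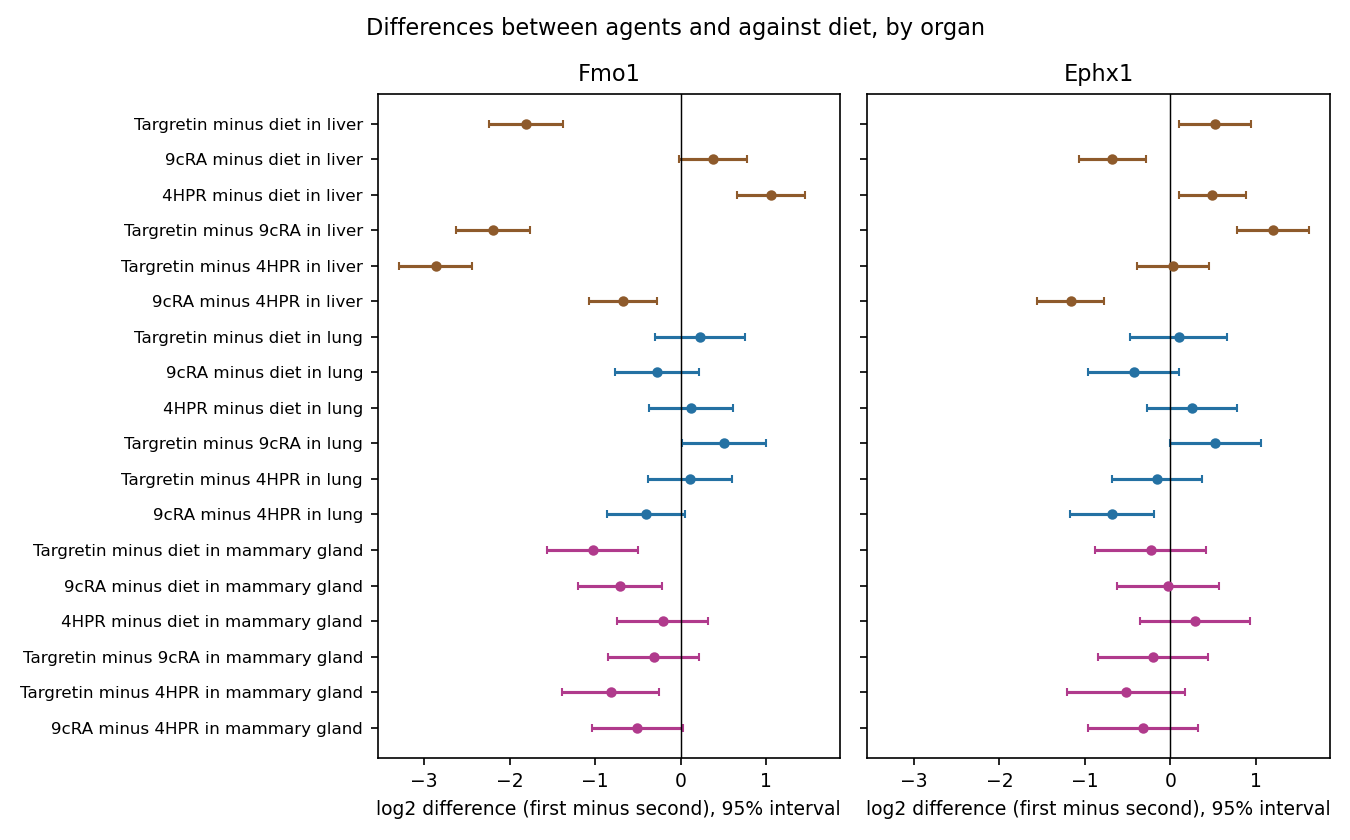
Log2 differences (first group minus second; points) with 95% intervals from limma (bars) for Fmo1 (left) and Ephx1 (right), for the 6 contrasts in each organ; the vertical line is 0. The liver contrasts, at the top, are a description of genes chosen there; among the lung and mammary gland contrasts only Targretin minus diet for Fmo1 in mammary gland, -1.02, passed at an adjusted p under 0.05.

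In mammary gland Fmo1 fell with Targretin. The 3 Targretin arrays read 3586.8, 4473.1 and 4274.4, all below the lowest of the 4 diet arrays, 6068.8. The difference was -1.02 ± 0.25 (95% interval -1.56 to -0.49, adjusted p = 0.0175 by limma over 6059 probe sets), a 2.03-fold lower level, where 13.1% of probe sets passed. The call rests on few arrays: the adjusted p was 0.0589 without Targretin replicate 1, 0.0559 without diet replicate 2 and 0.0562 without diet replicate 3, with differences of -0.93, -0.93 and -0.92. In a bulk tissue, fewer cells that express a gene and less RNA per cell cannot be told apart.

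The hepatocyte marker sum was also lower with Targretin in these glands, at 0.842 to 1.17% of the untreated liver mean against 10.3 to 15.7% with diet. Skeletal muscle markers summed to 77519.3 on Targretin mammary gland replicate 3 and to 1944.1 to 3693.9 on the other mammary gland arrays. Without the arrays in doubt, which leaves out this replicate, Fmo1 differed by -1.06 (adjusted p = 0.0455 by limma). Adipocyte markers (11 of 13 measured) summed to 142607.4 to 217004.5 with Targretin and 195629.2 to 281185.1 with diet, and mammary epithelial markers (16 of 17 measured) to 283297.5 to 424313.3 and 183239.6 to 290552.9. The list of cholangiocyte and hepatic stellate markers (8 of 12 measured), which also holds genes of fibroblasts and smooth muscle, summed to 86996.7 to 117308.6 with Targretin and 130995.2 to 163331.2 with diet, without overlap; 1 of its 7 tested genes fell and none rose by limma. The part of these cell types in the Fmo1 difference was not tested.

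Differences of the other agents from diet were smaller for Fmo1 in mammary gland, and no other comparison passed. 9cRA arrays read 5827.5, 7384.4, 3514.9 and 4441.6, overlapping diet, a difference of -0.71 ± 0.23 (unadjusted p = 0.00758, adjusted p = 0.157 by limma). 4HPR arrays read 6744.7, 8123.9 and 6960.2, a difference from diet of -0.21 ± 0.25 (adjusted p = 0.999 by limma). Targretin minus 4HPR was -0.82 ± 0.27, with no overlap between the arrays and an adjusted p = 0.0997 in limma; it passed with array quality weights (adjusted p = 0.0182) and when only these groups were fitted (adjusted p = 0.0294). Targretin minus 9cRA was -0.31 ± 0.25 (adjusted p = 0.695) and 9cRA minus 4HPR -0.51 ± 0.25 (adjusted p = 0.521), by limma.

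Ephx1 in mammary gland passed in no comparison. Targretin arrays read 3388.3, 6246.7 and 5106.1, 9cRA arrays 8526.7, 5989.7, 5418.7 and 3259.6, and 4HPR arrays 7220.3, 6867.3 and 6505.6. The 4HPR arrays were the closest together and the 9cRA arrays the furthest apart. Against diet the differences were -0.23 ± 0.30 with Targretin (95% interval -0.88 to 0.41, adjusted p = 0.639), -0.032 ± 0.28 with 9cRA (-0.63 to 0.56, adjusted p = 0.972) and 0.29 ± 0.30 with 4HPR (-0.35 to 0.93, adjusted p = 0.999), by limma. The largest between agents was Targretin minus 4HPR, -0.52 ± 0.32 (adjusted p = 0.350 by limma). The arrays of those groups, 3 in each, did not overlap. How often other probe sets separate in this way was not counted, here or for Fmo1. As background, 0% of mammary gland probe sets passed for 9cRA against diet and 0% for 4HPR against diet, with 1130 and 180 at an unadjusted p under 0.05 in limma. Between agents 2.05% passed for Targretin against 9cRA, 4.23% for Targretin against 4HPR and 0.0495% for 9cRA against 4HPR.

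**Figure D4:**
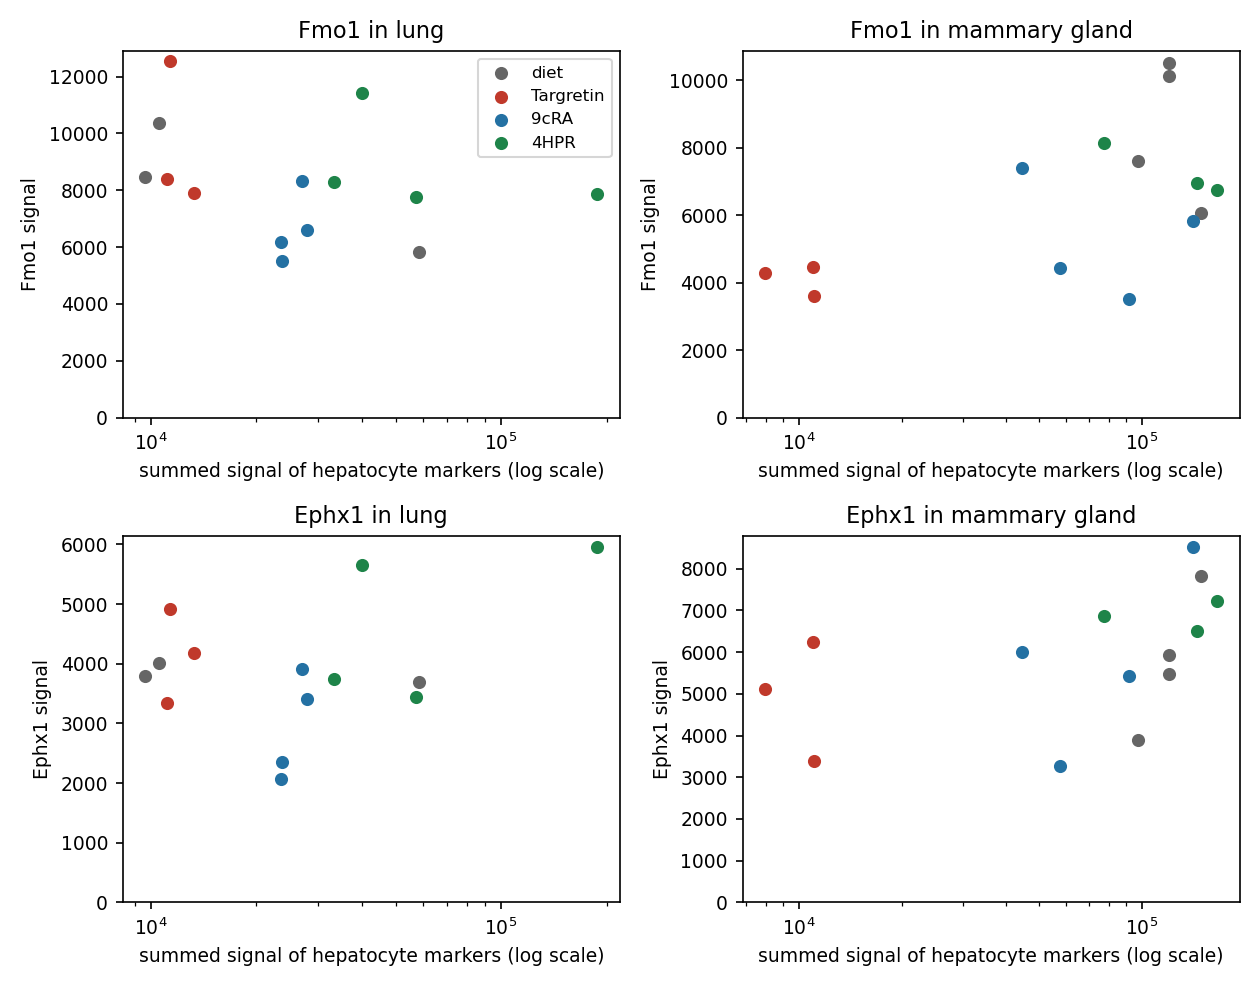
Signal of Fmo1 (top) and Ephx1 (bottom; vertical axes, linear from 0) against the summed signal of the hepatocyte markers (horizontal, log scale) on each lung array (left) and mammary gland array (right), coloured by agent; each point is 1 array. In mammary gland the 3 Targretin arrays lie apart at the lowest marker sums, 7962.1 to 11058.6, and in lung 1 4HPR array lies apart at 188186.9.

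The change of Fmo1 with Targretin differed between lung and mammary gland. It was 0.23 in lung and -1.02 in mammary gland, a difference of 1.26 ± 0.35 (95% interval 0.56 to 1.96, adjusted p = 0.0231 by the limma interaction contrast), where 6.4% of probe sets passed. The adjusted p was 0.138 when only these 4 groups were fitted, and 0.0549 to 0.0758 without any 1 of Targretin mammary gland replicate 1, Targretin lung replicate 3, diet lung replicate 2 and diet mammary gland replicates 2 and 3. For Ephx1 the same difference was 0.33 ± 0.39 (adjusted p = 0.699 by limma). With 9cRA the lung minus mammary gland differences were 0.43 ± 0.32 for Fmo1 and -0.40 ± 0.36 for Ephx1 (adjusted p = 0.842 and 0.893 by limma), and with 4HPR 0.33 ± 0.33 and -0.038 ± 0.38 (adjusted p = 0.999 for each by limma). For 9cRA 0% of probe sets passed and for 4HPR 0%, with 409 and 209 at an unadjusted p under 0.05 in limma.

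The nearest relatives on the array were few. No other flavin-containing monooxygenase had a probe set with its symbol alone. Ephx2, the soluble epoxide hydrolase, which opens epoxides of fatty acids in the cytosol, had 4 probe sets that disagreed. Of these rc_AI104882_s_at was tested in all organs and read 1411 ± 146 (SD, n = 4) in diet liver, 1269 ± 178 (SD, n = 3) with Targretin, 1526 ± 374 (SD, n = 4) with 9cRA and 1215 ± 197 (SD, n = 4) with 4HPR. Its largest liver difference, 9cRA minus 4HPR, was 0.31 ± 0.18 (adjusted p = 0.530 by limma). The probe set X65083cds_at was also tested in liver, at low group means of 109 to 265. Its largest liver difference, Targretin minus 4HPR, was 1.06 ± 0.34 and did not pass (adjusted p = 0.0713 by limma). Another, X60328_g_at, was not tested in liver and fell by 2.14 on the log2 scale (SE 0.62) with Targretin in mammary gland (adjusted p = 0.0351 by limma). It read 1112 ± 1036 (SD, n = 4) with diet there and 182 ± 116 (SD, n = 3) with Targretin. The latter mean is below the lowest median signal of a mammary gland array, 346.9, so the size of this fall is uncertain. In the same comparison X60328_at, not tested in liver either, differed by -1.87 ± 0.75 (adjusted p = 0.106 by limma). For rc_AI104882_s_at the difference was -0.42 ± 0.31 (adjusted p = 0.372 by limma).

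Other enzymes of foreign compound metabolism were taken from 7 lists, which together name 169 genes besides Fmo1 and Ephx1; 103 were measured and 96 tested in liver, at 1 probe set per gene. With Targretin 11 rose, 10 fell and 75 did not pass against diet, which is 21.9% passing beside 11.1% of all liver probe sets, with a median difference of -0.12 beside -0.016 over all probe sets tested. With 9cRA 7 rose and 7 fell, 14.6% beside 5.16% (median 0.064 beside -0.015), and with 4HPR 8 rose and 1 fell, 9.38% beside 2.78% (median 0.13 beside -0.10). The lists were drawn up with earlier results of these data known, and the counts of single lists that follow stand beside the same shares of all probe sets. Between agents, 6 were higher and 9 lower with Targretin than with 9cRA (15.6% beside 5.72%), and 7 higher and 13 lower with Targretin than with 4HPR (20.8% beside 7.87%). For 9cRA against 4HPR none passed in limma (2 with array quality weights).

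Among 24 other oxidoreductases and hydrolases outside the P450 family, Targretin raised 2 and lowered 3 in liver. Aldh1a1, an aldehyde dehydrogenase that also oxidises retinal, rose by 0.98 ± 0.22 (adjusted p = 0.00611 by limma), and Adh4, an alcohol dehydrogenase that accepts retinol, by 1.10 ± 0.26. Xdh, the xanthine oxidoreductase, fell by 1.66 ± 0.21, from 3495 ± 127 (SD, n = 4) to 1083 ± 91.1 (SD, n = 3). Dpyd, which reduces pyrimidines, fell by 0.97 ± 0.16, and Maob, a monoamine oxidase, by 0.80 ± 0.12. Xdh also fell with 9cRA, by 1.10 ± 0.19, and with 4HPR, by 0.82 ± 0.19. Ces1d, a carboxylesterase, fell with 9cRA by 0.79 ± 0.16, and Hsd11b1, which reduces carbonyl compounds and glucocorticoids, rose with 4HPR by 1.42 ± 0.29.

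Between agents, Nqo1, a quinone reductase and Nrf2 target, was lower with Targretin, with a difference from 9cRA of -1.12 ± 0.25 (adjusted p = 0.0113 by limma) and from 4HPR of -1.12 ± 0.25 (adjusted p = 0.00995). Dpyd was lower with Targretin than with either, by -1.09 ± 0.16 in each comparison. Hsd11b1 was lower with Targretin than with 4HPR by -1.98 ± 0.31, and the level of Aldh1a1 with Targretin exceeded that with 9cRA by 1.44 ± 0.22.

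Of the electron donors of the P450 system, Por, the NADPH reductase of microsomal P450, rose with Targretin by 1.10 ± 0.24 (adjusted p = 0.00514 by limma), and Cyb5a, cytochrome b5, fell by 0.53 ± 0.16 (adjusted p = 0.0426). The other 3 of the 5 measured did not pass. Among 18 CAR and PXR targets tested, 5 rose and 2 fell with Targretin, 3 rose and 4 fell with 9cRA, and 3 rose with 4HPR. Cyp2b2, the classic target of CAR, rose by 2.91 ± 0.20 with Targretin, and Cyp3a9 rose by 0.89 ± 0.17 with 9cRA and 1.10 ± 0.17 with 4HPR; probe sets of these families can bind close paralogs. Cyp3a18, of the same subfamily, fell by 1.92 ± 0.22 with Targretin and by 1.04 ± 0.21 with 9cRA, and Abcc2, an exporter of conjugates into bile, fell by 0.81 ± 0.22 and by 0.95 ± 0.20. Ephx1, not counted among these, was above diet with Targretin and 4HPR and below it with 9cRA.

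Among 16 Nrf2 targets, 2 rose and 2 fell with Targretin. Tkt, a transketolase, rose by 0.97 ± 0.17. Gclc, the catalytic subunit of glutamate-cysteine ligase in glutathione synthesis, fell by 2.93 ± 0.64 (adjusted p = 0.00542 by limma). It went from 1449 ± 418 (SD, n = 4) to 181 ± 134 (SD, n = 3), a mean below the lowest median signal of a liver array, 265.9, so the size of this fall is uncertain. With 9cRA 2 fell, Gstm1, a glutathione transferase, by 0.88 ± 0.15 and Txnrd1, a thioredoxin reductase, by 0.60 ± 0.15. With 4HPR none of the 16 passed in limma.

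Of 30 conjugating enzymes tested, 2 rose and 1 fell with Targretin, 2 rose and 2 fell with 9cRA and 3 rose with 4HPR. Sult1c3, a sulfotransferase, rose with all agents, by 1.04 ± 0.32, 1.82 ± 0.30 and 1.41 ± 0.30 in that order. Gstt2, a glutathione transferase, rose by 0.93 ± 0.16 with 9cRA and 0.96 ± 0.16 with 4HPR. Gsto1, an omega class glutathione transferase, fell with Targretin by 0.63 ± 0.16 and was lower with Targretin than with 4HPR by -1.02 ± 0.16. In mammary gland, 27 of 88 tested list genes fell and 5 rose with Targretin against diet, 36.4% passing beside 13.1% of all mammary gland probe sets (314 lower and 482 higher of 6059), on the arrays where the hepatocyte marker sum was lower as well.

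The genes most like Fmo1 over the 15 liver arrays, by Pearson correlation of log2 signal among 4971 probe sets with 1 gene symbol, were Rpp21 (0.972, and 0.922 for its other probe set), Dpyd (0.938), Acsm2 (0.935) and Gsto1 (0.927). Rpp21 encodes a protein subunit of ribonuclease P, and Acsm2 a medium-chain acyl-CoA synthetase. The arrays share the treatments, so the values reflect group means as well as single arrays. All 4 genes were lowest with Targretin and highest with 4HPR, whereas 9cRA was above diet for Rpp21 (7164 and 5432 on its more alike probe set) and Dpyd but not for Acsm2 (1443 and 1528) or Gsto1 (6119 and 6136). The Dpyd probe set read 2057 ± 240 (SD, n = 3) with Targretin, 3931 ± 648 (SD, n = 4) with diet, 4223 ± 252 (SD, n = 4) with 9cRA and 4549 ± 348 (SD, n = 4) with 4HPR. Over the 12 group means, among 4221 probe sets, the most alike were Scg5 (0.894), Mfsd12 (0.868), Prp2l1 (0.852), Flnc (0.835) and Znrf1 (0.817). Each of these had its lowest group mean in Targretin liver, as Fmo1 did. Scg5 was low throughout, from 88.9 there to 434 in 4HPR mammary gland, and Znrf1 was 272 in Targretin liver.

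For Ephx1 the liver list was looser, with Rab33b at 0.843, Acsl5 at 0.821, Scly at 0.812, Gch1 at 0.791 and Psat1 at 0.780. Acsl5, a long-chain acyl-CoA synthetase, read 19986 ± 4093 (SD, n = 3) with Targretin, 16358 ± 1696 (SD, n = 4) with 4HPR, 12751 ± 1040 (SD, n = 4) with diet and 12558 ± 1365 (SD, n = 4) with 9cRA, so it was not below diet with 9cRA to the extent seen for Ephx1. Over the 12 group means the values were higher, 0.984 for Scly, 0.979 for Arg1, 0.971 for Cth, 0.969 for Mettl7b and 0.967 for Suox. Arginase 1 (Arg1), of the urea cycle, read 23389 ± 2835 (SD, n = 4) in diet liver and 1148.83 to 2290.97 as mammary gland group means. Each of these genes had every liver group mean above every lung and mammary gland group mean, as Ephx1 did. The part of this organ contrast in the likeness was not tested.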

How the data were processed

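Affymetrix rat arrays measured transcripts, 1 array per sample, 43 in all. The authors deposited 1 intensity per probe set, named as MAS5 signal by the submitters' processing notes and linear in scale. Every array had a 2% trimmed mean of 1501.78 to 1503.29, so none was rescaled. A MAS5 version is not given in the sources used here. Without 59 controls, 8740 of 8799 probe sets remained; the platform annotation gives 7006 of them 1 symbol, 308 several and 1426 none. Signals were taken as log2 of signal plus 38.1, the 10th percentile of the table. For the tests in an organ, a probe set had to exceed the array's 40th percentile on at least 3 arrays, which left 6084 (liver), 5935 (lung) and 6059 (mammary gland), Fmo1 and Ephx1 included. Each organ was fitted with limma 3.58.1 in R 4.3.3 (lmFit, eBayes with trend), and organs were compared in a fit of all arrays, with Benjamini-Hochberg adjustment and a threshold of 0.05. The script was tested on simulated data. The members and the gene lists were chosen with earlier results of these data known. Named genes were up to 3 passing genes per list, liver contrast and direction with the largest difference, the related enzymes, and the 5 probe sets most like each member; a part is given. A list gene used its probe set with the highest mean log2 signal. Promoters are from RefSeq (GRCr8); the array files name no genome build. Alternatives were quantile normalization, no filter, a pseudocount 4 times larger, array quality weights, only the groups compared, a replicate block, plain ratios of means in liver, and leaving out each array or 4 arrays in doubt.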

Additional observations from a re-analysis of the deposited data

Results flagged for a closer look

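Among 4HPR livers, replicate 4 had the highest Ephx1 signal, 38123.9, far from the other 3 arrays (29878.4 to 30617.6). On the log2 scale its gap was 0.900 of the group's range. Among 9cRA livers, replicate 4 had the lowest Fmo1 signal, 3380.1, against 4527.1 to 4745.4 on the other 3. That gap was 0.861 of the range, again on the log2 scale. Both gaps exceed the 95% critical value of Dixon's test for 4 arrays. Over both genes, 14 sets of 4 signals were looked at, and chance marks about 1 in 20. The change of Fmo1 with Targretin against diet differed between lung and mammary gland by 1.26 on the log2 scale in the interaction test.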

How the results depend on the processing

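Of 252 recomputed values of tested comparisons for Fmo1 and Ephx1 under alternatives other than leaving out an array, 243 kept their direction and their side of the threshold, and of 296 with an array left out, 272 did. The liver values have no test. Their direction was kept in 90 of 90 under other alternatives and in 88 of 90 with an array left out, the exceptions being Targretin minus 4HPR for Ephx1, which was between -0.10 and 0.18. Fmo1, 4HPR minus diet in lung, turned to -0.18 with array quality weights, Ephx1, 9cRA minus diet in mammary gland, to 0.13 with weights and 0.029 under quantile normalization, Fmo1, untreated lung minus mammary gland, to 0.078 with weights and 0.059 under quantile normalization, and Ephx1, 4HPR minus diet in lung minus mammary gland, to 0.021 under quantile normalization. Fmo1, Targretin minus 4HPR in mammary gland, passed with weights (-0.77) and with only the groups compared (-0.82), and Fmo1, Targretin minus diet in lung minus mammary gland, no longer passed with only those groups (1.26). The cause was not tested.

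With an array left out, Fmo1 ran from -1.18 to -0.92 for Targretin minus diet in mammary gland, 1.03 to 1.44 for its lung minus mammary gland difference, -0.10 to 0.31 for 4HPR minus diet in lung, -0.10 to 0.24 for Targretin minus 4HPR in lung and -0.25 to 0.16 for untreated lung minus mammary gland. Ephx1 ran from -0.035 to 0.24 for Targretin minus diet in lung, -0.43 to 0.011 for it in mammary gland, -0.24 to 0.22 for 9cRA minus diet in mammary gland, -0.45 to 0.043 for Targretin minus 9cRA there, -0.72 to -0.38 for untreated lung minus mammary gland and -0.20 to 0.14 for 4HPR minus diet in lung minus mammary gland.

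Counts of passing probe sets moved more. With array quality weights they were, in liver, 483 for 9cRA and 443 for 4HPR against diet and 22 for 9cRA against 4HPR; in lung, 697, 964 and 398 for Targretin, 9cRA and 4HPR against diet, 44 for Targretin and 5 for 9cRA against 4HPR; in mammary gland, 1308 for Targretin against diet, 1108 for Targretin and 37 for 9cRA against 4HPR; and 135 and 169 for lung against mammary gland with 9cRA and 4HPR. With only the groups compared they were 292 for Targretin and 6 for 9cRA against 4HPR in liver; in lung 0 for Targretin and 1 for 9cRA against diet, 19 for Targretin against 9cRA, 39 for Targretin and 1 for 9cRA against 4HPR; in mammary gland 458 and 12 for Targretin and 9cRA against 4HPR; and 16 for lung against mammary gland with Targretin. Fewer arrays entered those fits. No filter gave 1 for 9cRA against diet and 2 for Targretin against 9cRA in lung, quantile normalization 2 for the latter and 1 for 9cRA against 4HPR, and the larger pseudocount 6 for 9cRA against 4HPR in mammary gland. Without the arrays in doubt they were 2 for 9cRA against 4HPR in lung, 409 for Targretin against diet and 159 for Targretin against 4HPR in mammary gland, and 120 for lung against mammary gland with Targretin. Passing drug enzyme genes in liver were 19 for 4HPR against diet and 2 for 9cRA against 4HPR with weights, and 12 for Targretin against 4HPR with only those groups.

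With an array left out, liver counts were 420 to 587 for Targretin, 203 to 279 for 9cRA and 92 to 280 for 4HPR against diet, 280 to 491 for Targretin and 3 to 18 for 9cRA against 4HPR, and drug enzyme genes 13 to 18 for Targretin and 7 to 14 for 4HPR against diet and 0 to 1 for 9cRA against 4HPR. Lung counts were 0 to 460, 0 to 38 and 0 to 80 for Targretin, 9cRA and 4HPR against diet, 0 to 5 for Targretin against 9cRA and 0 to 352 for Targretin against 4HPR. Mammary gland counts were 338 to 1057 for Targretin and 0 to 147 for 9cRA against diet, 117 to 189 for Targretin and 0 to 6 for 9cRA against 4HPR. Lung against mammary gland gave 155 to 506, 0 to 51 and 0 to 75 for Targretin, 9cRA and 4HPR.

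Array numbers were tried as a replicate block: the consensus correlation was -0.0567 for liver, 0.00793 for lung and -0.0197 for mammary gland, and 0.0621 to 0.0692 across organs, so numbers were not taken to pair arrays, and the block changed no call of Fmo1 or Ephx1 and moved no count by over 1.5 times.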
